A study of Rattus norvegicus with 100 samples.

Results

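Primary rat hepatocytes exposed to 0.01 µM GW7647 for 24 h were compared with hepatocytes kept for 24 h at 0 µM. The exposed group was every array whose title gives 24 h and 0.01 µM, which is 4 of the 100 arrays of the study, 1 from each of the rats Rs627, Rs628, Rs631 and Rs632. The 0 µM group was the 3 arrays of 24 h and 0 µM, from Rs627, Rs631 and Rs632. Thus 3 rats had an array in both groups, and Rs628 had an array at 0.01 µM alone. In the whole study, hepatocytes of 4 rats received GW7647 at 0.001, 0.01, 0.1, 1 or 10 µM, or 0 µM, and RNA was taken after 2, 6, 12, 24 or 72 h. All cultures shared collagen IV-coated plates, a Geltrex overlay and William E medium with a maintenance supplement. The strain, age and sex of the rats and the solvent of the 0 µM cultures are not given in the sources used here.

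GW7647 is a synthetic agonist of PPARα, a nuclear receptor that binds DNA as a pair with RXR and that fatty acids activate in the body. In rodent liver PPARα raises the genes that take up, activate, transport and oxidise fatty acids in mitochondria, peroxisomes and the endoplasmic reticulum, and those that make ketone bodies.

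Each value is a log2 intensity of 1 probe set on 1 Affymetrix array, and a gene stands for its probe set with the highest mean. Of 13439 genes, the 8843 that exceeded 5 on the log2 scale in 3 arrays or more entered the tests. Array 75th percentiles lay between 6.84 and 6.98 at 0.01 µM and between 6.88 and 7.10 at 0 µM, and none of the 7 arrays belonged to the 5 of low signal. Nor did any belong to the 23 whose title shares its closing letter-and-number code with another title. The titles do not say what that code stands for. Of the hepatocyte marker list, 16 of 16 genes with a probe set were above 5, with a mean log2 value per array of 10.90 to 11.23 at 0.01 µM and 11.01 to 11.12 at 0 µM. Endothelial markers with a probe set were at or under 5 on all 7 arrays (0 of 8 above), Pecam1, Kdr and Stab2 included. Above 5 in any array were 3 of 11 macrophage, 7 of 12 stellate and fibroblast, and 5 of 7 bile duct markers. Adgre1, Csf1r, Clec4f, Lrat, Des, Pdgfrb, Sox9 and Cftr were at or under 5 throughout. Other members were bright on all 7 arrays. The macrophage markers Cd14 and Lyz2 lay at 8.87 to 9.93 and at 8.49 to 9.497. Vim, of the stellate and fibroblast list, lay at 9.67 to 11.72, and Epcam, of the bile duct list, at 9.79 to 10.875. Summed linear intensities of the macrophage list ran from 1249.6 to 1679 at 0.01 µM and from 1316 to 1549 at 0 µM. Those of the stellate and fibroblast list ran from 1348 to 3999 at 0.01 µM and from 2041 to 3745 at 0 µM, and those of the bile duct list from 1005 to 2179.6 at 0.01 µM and from 1109 to 1773 at 0 µM. The ranges of these 3 lists overlapped between the groups and no marker passed the test. Linear sums are weighted towards bright genes such as Cd14, Lyz2, Vim and Epcam, and say little of the dimmer members. The array of Rs628 at 0.01 µM, which has no partner at 0 µM, stood apart for 3 markers. Tagln, a smooth muscle and fibroblast gene, was at 10.46 on it, against 5.73 to 6.88 on the other arrays at 0.01 µM and 6.54 to 7.502 at 0 µM. Krt7, a bile duct keratin, was at 6.57 on it and under 5 on the other 6 arrays, and Krt19, another, was at 6.92 against at most 5.00 on the other arrays at 0.01 µM and 3.48 to 5.48 at 0 µM. The part of other cells in the results was not tested, and the count of called genes without Rs628 is given with the calls. In such bulk samples, fewer cells of a type and less RNA per cell cannot be told apart.

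At 0.01 µM, 12 of the 8843 genes were higher than at 0 µM (0.136% of those tested) and 0 were lower (0.0%). The test was limma over all 100 arrays with a mean for each of 30 groups, two-sided, Benjamini-Hochberg adjusted over all genes tested, with a threshold of 0.05. At an unadjusted p under 0.05, 99 genes were higher (1.12%) and 62 lower (0.701%), and the median change of all genes was -0.05 on the log2 scale. These 161 genes are under a share of 0.05, which p-values give on average where nothing differs. The model without the rat is thus a strict one, and a gene it does not call may still differ. With the rat as a block, 462 of the 8843 genes were at an unadjusted p under 0.05, which is close to that share of 0.05. With the rat as a replicate block, 36 genes were higher (0.407%) and 1 was lower (0.0113%), and all 12 genes were among the 36. The 12 are Ehhadh, Cyp4a1, Crat, Acsl1, Ech1, Acaa2, Lpcat3, Acat1, Slc25a20, Eci1, Hadha and Acadvl. Of these, 11 are on lists of fatty acid metabolism, which together held 100 of the genes tested. The lists were chosen with earlier results of these data known, so that count describes the 12 and is no separate support. The fold changes of the 12 were between 1.33 and 3.45, with a median of 1.53.

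Every one of the 12 was higher at 0.01 µM in 3 of 3 rats, where 12.4% of all genes were, and in 11 the 2 groups did not overlap, where 1.3% of all genes did not. The 12 were chosen by a test on these same arrays, so both counts describe them and are no separate support. The same rules in the other direction gave 28.8% and 2.88% of all genes, so that more genes were lower than higher by these rules. Calls depended on the arrays that set the spread and on single rats. With the 7 arrays of the 2 groups alone the count was 0, and with the arrays of 24 h alone it was 4. Without the arrays of Rs631 the count was 0, without Rs632 it was 3, without Rs627 it was 6 and without Rs628 it was 9. Of the 12 genes themselves, 12, 9, 7 and 6 were then no longer called. With the rat as a block the count of 37 fell to 2 without Rs631, and was 15, 35 and 22 without Rs627, Rs628 and Rs632, in that order.

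**Figure D1:**
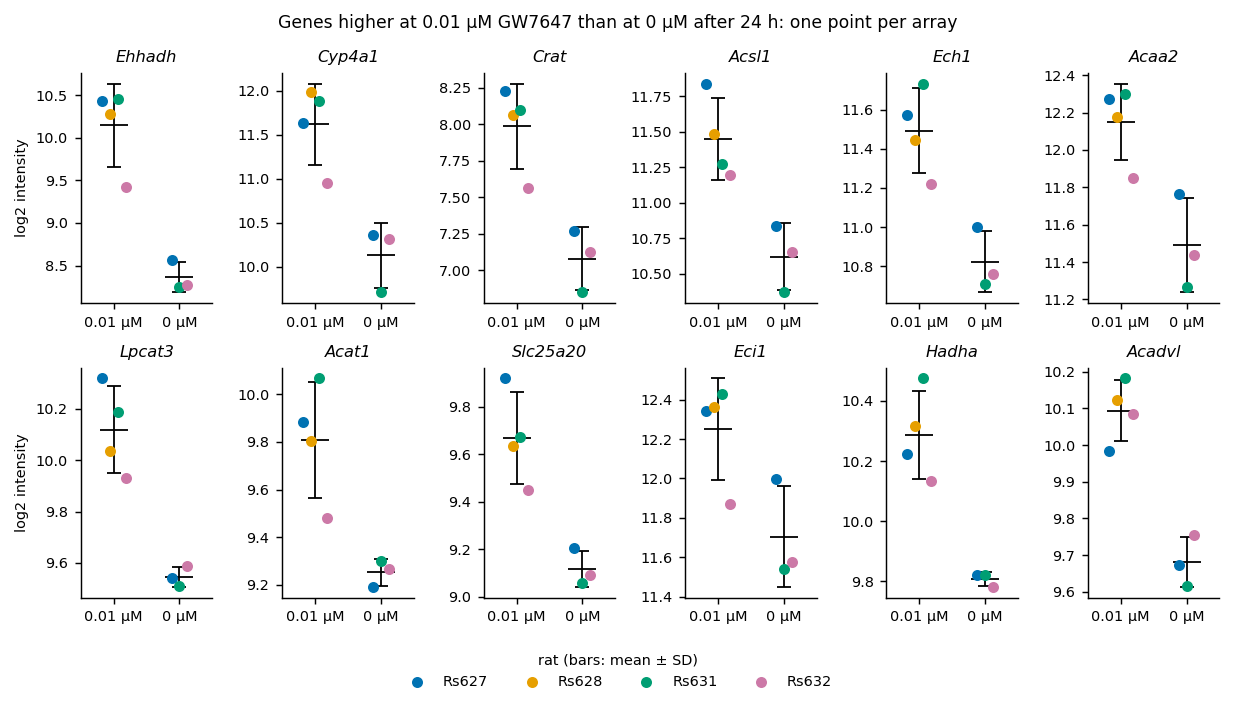
Log2 intensity (vertical axes, each with its own range) of the 12 genes higher at 0.01 µM GW7647 than at 0 µM after 24 h, 1 point per array, coloured by rat, with the mean and SD as bars. The 4 arrays at 0.01 µM lie above the 3 at 0 µM in every gene but Eci1, and Rs632 is the lowest of the 4 in 11 genes.

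Ehhadh, the peroxisomal bifunctional enzyme that hydrates and then dehydrogenates enoyl-CoA, had the largest change among the 12. Its log2 values were 10.43, 10.28, 10.46 and 9.43 at 0.01 µM in Rs627, Rs628, Rs631 and Rs632, and 8.57, 8.25 and 8.27 at 0 µM in Rs627, Rs631 and Rs632. The lowest exposed array, that of Rs632, was still above the highest 0 µM array. Ehhadh averaged 10.15 ± 0.49 at 0.01 µM (SD, n = 4) and 8.36 ± 0.18 at 0 µM (n = 3), a log2 change of 1.79 ± 0.26 (SE), or 3.45-fold (limma, adjusted p = 2.62e-05).

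Ech1, which moves double bonds in dienoyl-CoA in peroxisomes and mitochondria, had log2 values of 11.57, 11.45, 11.73 and 11.22 at 0.01 µM and 11.00, 10.71 and 10.76 at 0 µM, with rats in the same order as above. The groups did not overlap, and the log2 change was 0.67 ± 0.12 (limma, adjusted p = 0.00126). Of the 14 tested genes of the peroxisomal oxidation list these were the 2 that rose (against 0.136% of all genes). With the rat as a block 5 rose (against 0.407%). All 14 were higher in each of the 3 rats (against 12.4% of all genes), with a median change of 0.30. Hacl1, which shortens 2-hydroxy and branched acyl chains, had values of 10.01, 9.64, 9.57 and 8.72 at 0.01 µM and 8.72, 8.28 and 8.25 at 0 µM. Its difference of 1.07 ± 0.26 missed the threshold (adjusted p = 0.0568) and passed with the block (0.000708). Ephx2, an epoxide hydrolase partly in peroxisomes, and Hsd17b4, the second bifunctional enzyme of peroxisomes, passed only with the block, at log2 changes there of 0.79 (adjusted p = 0.000511) and 0.28 (0.00751). Peroxins, the proteins that build peroxisomes, gave 0 calls among 13 tested in either model, with a median of 0.05. At an unadjusted p under 0.05, 1 gene was higher (against 1.12% of all genes). That gene was Pex19, a chaperone of peroxisomal membrane proteins (0.46 ± 0.15, adjusted p = 1).

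Fatty acids enter mitochondria as carnitine esters, and 2 genes of this shuttle rose (against 0.136% of all genes). Crat, carnitine acetyltransferase, had log2 values of 8.23, 8.06, 8.09 and 7.56 at 0.01 µM and 7.27, 6.85 and 7.12 at 0 µM. Slc25a20, the carrier that exchanges acylcarnitine for carnitine across the inner membrane, had 9.92, 9.64, 9.67 and 9.45 at 0.01 µM and 9.20, 9.06 and 9.09 at 0 µM. Neither gene had overlapping groups. Crat changed by 0.91 ± 0.21 on the log2 scale (1.87-fold, limma adjusted p = 0.0363) and Slc25a20 by 0.55 ± 0.13 (1.47-fold, adjusted p = 0.0491). All 8 tested genes of the shuttle list were higher in each of the 3 rats (against 12.4% of all genes), with a median change of 0.45, and 6 did not pass.

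The carnitine palmitoyltransferases were among those 6. Cpt1a, the liver form of the enzyme that commits long chains to the shuttle, had 9.53, 9.42, 8.99 and 8.91 at 0.01 µM and 8.76, 8.48 and 8.76 at 0 µM. The groups did not overlap, yet the difference of 0.55 ± 0.26 had an adjusted p of 1 (0.487 with the block). Cpt1b, the muscle form, differed by 0.58 ± 0.38 and Cpt2, the inner-membrane enzyme, by 0.25 ± 0.16, both with overlapping groups.

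Inside mitochondria, 4 of 16 tested genes of the β-oxidation list rose (against 0.136% of all genes), and 9 with the rat as a block (against 0.407%). Of the 16, 14 were higher in each of the 3 rats (against 12.4% of all genes), with a median change of 0.39. Acaa2, the thiolase of the last step, had log2 values of 12.27, 12.17, 12.30 and 11.85 at 0.01 µM and 11.76, 11.27 and 11.44 at 0 µM, a change of 0.66 ± 0.14 (adjusted p = 0.0108). Hadha, the α subunit of the trifunctional protein for long chains, had 10.22, 10.31, 10.47 and 10.13 at 0.01 µM and 9.82, 9.82 and 9.78 at 0 µM, a change of 0.48 ± 0.09 (adjusted p = 0.00663). In both genes the groups did not overlap, and the 3 values of Hadha at 0 µM had an SD of 0.02. Another tested Hadha probe set, dim at a mean log2 value of 5.01 over all arrays, differed by 0.10 ± 0.25 and did not pass. Hadhb, the β subunit of the same protein, differed by 0.18 ± 0.08 with overlapping groups. It passed in neither limma model (adjusted p = 0.427 with the block).

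Eci1, an isomerase needed for unsaturated chains, had 12.34, 12.36, 12.43 and 11.87 at 0.01 µM and 12.00, 11.54 and 11.57 at 0 µM, a change of 0.55 ± 0.12 (adjusted p = 0.0287). Here the groups overlapped, because Rs632 at 0.01 µM was below Rs627 at 0 µM. The Eci1 probe set carries a suffix for probes shared between transcripts. Acadvl, the very-long-chain acyl-CoA dehydrogenase, had 9.98, 10.12, 10.18 and 10.08 at 0.01 µM and 9.67, 9.62 and 9.75 at 0 µM. Its change of 0.41 ± 0.10 was the smallest of the 12 and had an adjusted p that rounds to 0.05 from below. Passing only with the block were Hadh (0.46, adjusted p = 0.000106), Acadm (0.61, 0.00135), Decr1 (0.44, 0.000135), Eci2 (0.50, 0.00135) and Etfdh (0.37, 0.00284), given as block log2 changes. Hadh and Acadm are dehydrogenases of shorter chains, Decr1 and Eci2 act on unsaturated chains, and Etfdh passes the electrons to ubiquinone.

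**Figure D2:**
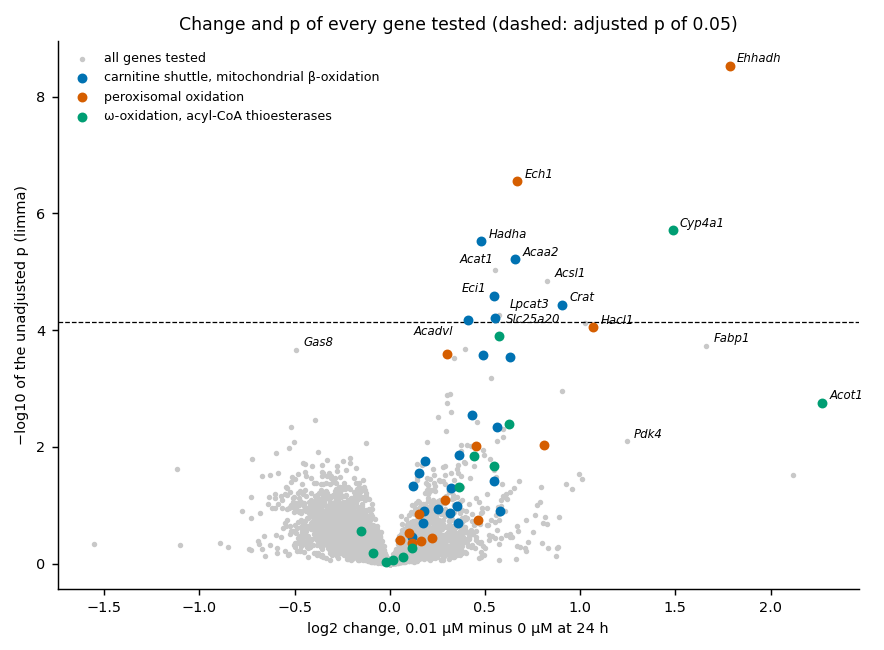
Log2 change at 0.01 µM against 0 µM after 24 h (horizontal axis) and −log10 of the unadjusted limma p (vertical axis) for the 8843 genes tested, with members of 5 lists of fatty acid metabolism coloured and selected genes named. The 12 genes above the dashed line all lie right of 0, while Fabp1, Acot1 and Pdk4 lie far to the right below it.

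Acsl1 activates long-chain fatty acids to acyl-CoA in the liver. Its log2 values were 11.84, 11.49, 11.27 and 11.20 at 0.01 µM and 10.84, 10.37 and 10.66 at 0 µM, without overlap, a change of 0.83 ± 0.18 (adjusted p = 0.0182). It was the only gene of 20 tested on the uptake, binding and activation list to rise (against 0.136% of all genes). With the block 3 did (against 0.407%). The list median was 0.11, and 8 of the 20 were higher in each of the 3 rats (against 12.4% of all genes). Acsl5, a related synthetase, passed with the block alone (0.35, adjusted p = 0.012), while its other, dimmer probe set differed the other way without the block and did not pass (-0.23 ± 0.20). Acsl4, which prefers arachidonic acid, was at 11.17, 10.78, 10.85 and 11.00 at 0.01 µM and 11.25, 11.36 and 11.23 at 0 µM. It was lower without overlap, as were 2.88% of all genes, and did not pass (-0.33 ± 0.14, adjusted p = 1).

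Fabp1, the liver fatty acid binding protein, shows how far rats differed. Its log2 values were 11.90, 11.21, 11.03 and 10.08 at 0.01 µM in Rs627, Rs628, Rs631 and Rs632, and 10.26, 9.25 and 8.67 at 0 µM in Rs627, Rs631 and Rs632. The groups overlapped, since Rs627 had the highest and Rs632 the lowest value in both, yet within the 3 rats the differences were 1.65, 1.78 and 1.41. Without the rat in the model Fabp1 differed by 1.66 ± 0.42 and did not pass (adjusted p = 0.103), and with the block it changed by 1.69 ± 0.28 (adjusted p = 0.000102).

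Cyp4a1 hydroxylates fatty acids at their far end in the endoplasmic reticulum. It had log2 values of 11.64, 11.98, 11.89 and 10.96 at 0.01 µM and 10.36, 9.71 and 10.32 at 0 µM, a change of 1.49 ± 0.29 or 2.80-fold without overlap (adjusted p = 0.00574). Cyp4a3, a close relative, had 11.91, 11.56, 12.10 and 11.54 at 0.01 µM and 11.37, 11.05 and 11.03 at 0 µM and passed with the block alone (0.72 ± 0.16, adjusted p = 0.00869). Members of this family are similar in sequence, and whether their probe sets share signal was not tested. Of 6 tested genes of the ω-oxidation list these 2 were higher at an unadjusted p under 0.05 (against 1.12% of all genes). No other gene of the list was under 0.05, and the list median was 0.04.

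Acat1, the mitochondrial thiolase that joins and splits acetoacetyl-CoA, was the gene of the ketone body list that rose. It was 1 of 5 tested (against 0.136% of all genes). Its log2 values were 9.88, 9.80, 10.07 and 9.48 at 0.01 µM and 9.19, 9.30 and 9.27 at 0 µM, a change of 0.56 ± 0.12 (adjusted p = 0.0137). Lpcat3, which puts polyunsaturated chains into phospholipids, was the one gene of the 12 on none of the lists. It had 10.32, 10.04, 10.19 and 9.93 at 0.01 µM and 9.54, 9.51 and 9.59 at 0 µM, a change of 0.57 ± 0.13 (adjusted p = 0.0489). Both genes were without overlap, and their 0 µM arrays lay close together (SD 0.06 for Acat1 and 0.04 for Lpcat3).

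Acyl-CoA thioesterases split acyl-CoA into free acid and CoA. None of 7 tested passed, and 2 were higher with the block (against 0.407% of all genes). At an unadjusted p under 0.05, 5 were higher (against 1.12% of all genes), and the median change was 0.44. Acot1, the cytosolic form, had log2 values of 7.37, 7.81, 6.91 and 4.31 at 0.01 µM and 4.91, 3.95 and 4.13 at 0 µM. Its transcript was thus above the floor of 5 in 3 of 4 exposed arrays and in 0 of 3 arrays at 0 µM, and the array of Rs632 stayed at the 0 µM level. With values under 5 set to 5 the fold was 3.42, which is no lower bound because the Rs632 array at 0.01 µM was raised too. The test passed with the block (adjusted p = 0.0415) and not without it (0.557). Acot1 has near-identical relatives, so part of its signal may be theirs, which was not tested. Acot8, a peroxisomal form, had 8.14, 8.01, 8.32 and 7.98 at 0.01 µM and 7.37, 7.60 and 7.66 at 0 µM, without overlap. It differed by 0.57 ± 0.14 (adjusted p = 0.0739, and 0.00878 with the block). Acot2, the mitochondrial form, differed by 0.44 ± 0.18 with overlapping groups and passed in neither model.

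Beyond these, the block added Cidea (0.39, adjusted p = 0.0183), a lipid droplet protein, Mlycd (0.58, 0.000821), which removes the malonyl-CoA that inhibits the carnitine shuttle, Gk (0.84, 0.00135), which phosphorylates glycerol, and Fbp1 (0.33, 0.0291), an enzyme of glucose synthesis. Mlycd and Gk were the 2 calls with the block among 22 tested genes of the fuel switch list. Fbp1 was the only one among 16 of the glucose and amino acid list. Of all genes, 0.407% were higher with the block. On no list were Aig1 (0.94, adjusted p = 0.000112), Pgrmc2 (0.42, 0.00794), Dhrs4 (0.31, 0.00878), Hsd17b10 (0.31, 0.00878), Apmap (0.47, 0.0192), Nucb2 (0.33, 0.0192) and Mpc2 (0.31, 0.0324), all given as block log2 changes. These 7 and Etfdh were chosen for naming after their values were seen. Aig1 hydrolyses certain fatty acid esters, Mpc2 is a subunit of the mitochondrial pyruvate carrier and Hsd17b10 a mitochondrial dehydrogenase of short acyl chains. Aig1 had log2 values of 9.21, 9.46, 9.29 and 8.74 at 0.01 µM and 8.36, 7.98 and 8.11 at 0 µM, and just missed the threshold without the block (1.03 ± 0.24, adjusted p = 0.052).

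Within the 3 rats, the size of the rise differed. The median difference of the 12 genes was 0.70 in Rs627, 0.90 in Rs631 and 0.39 in Rs632, while that of all genes was -0.01, -0.08 and -0.06. Rs631 had the largest of the 3 differences in 9 genes and Rs627 in 3, and Rs632 had the smallest in 11. All differences of the 12 genes were above 0, with the lowest at 0.21 (Acat1 in Rs632) and the highest at 2.21 (Ehhadh in Rs631). Since each rat gave 1 array per group, a difference between rats and one between arrays cannot be told apart.

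**Figure D3:**
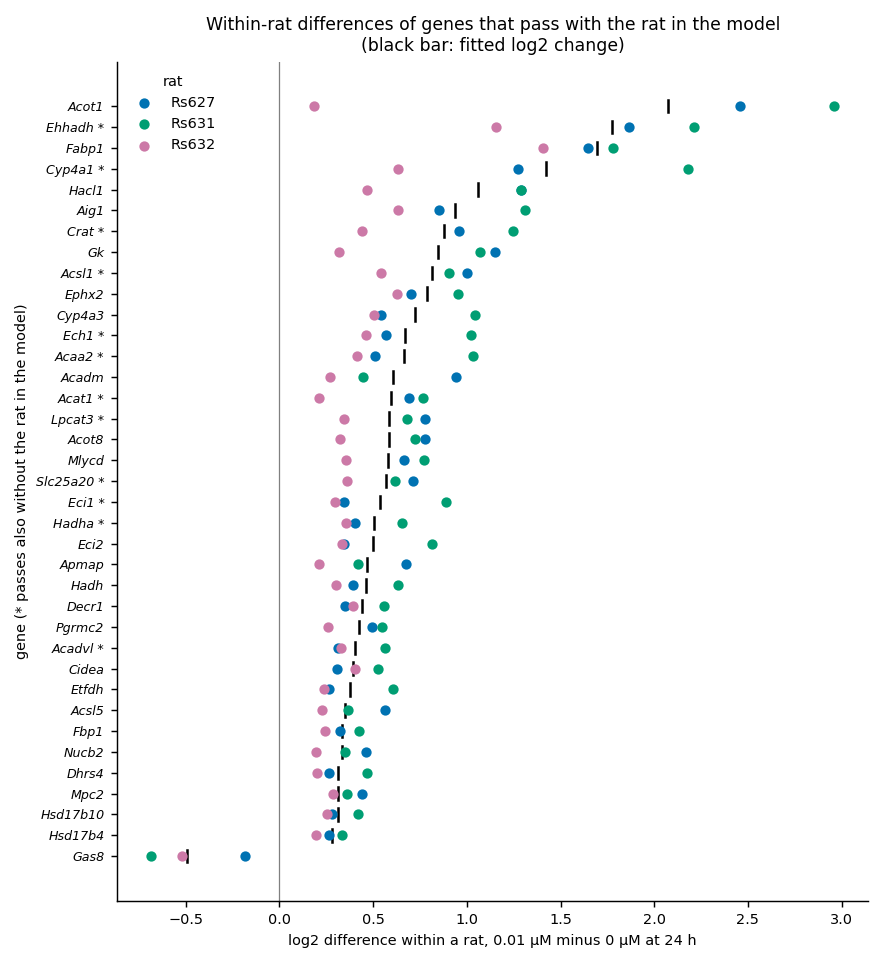
Log2 difference within a rat, 0.01 µM minus 0 µM at 24 h (horizontal axis), for the 37 genes that pass with the rat in the model (vertical axis), 1 point per rat with the fitted change as a black bar. All points of 36 genes lie right of 0, Gas8 alone lies left, and Rs632 is the leftmost point in most genes.

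Several known targets did not pass at this concentration. Pdk4, the kinase that shuts off pyruvate dehydrogenase, had log2 values of 9.80, 10.06, 9.93 and 8.15 at 0.01 µM and 8.64, 8.32 and 7.76 at 0 µM. Rs632 at 0.01 µM lay among the 0 µM values, and the difference of 1.25 ± 0.46 did not pass (adjusted p = 1, and 0.127 with the block). Angptl4, a secreted inhibitor of lipoprotein lipase, had 10.37, 10.61, 11.07 and 10.45 at 0.01 µM and 10.23, 10.28 and 10.42 at 0 µM, a difference of 0.31 ± 0.16. Plin2, the coat protein of lipid droplets, differed by 0.12 ± 0.08, Vnn1, a pantetheinase, by 0.23 ± 0.20, Pex11a, which divides peroxisomes, by 0.58 ± 0.33, Creb3l3, a liver transcription factor, by 0.27 ± 0.16 and Fgf21, a secreted hormone, by 0.21 ± 0.38. Each of these 6 genes was higher at 0.01 µM in 3 of 3 rats (as were 12.4% of all genes), but the groups overlapped and none passed with or without the block. Txnip, an inhibitor of thioredoxin, was higher in 2 of 3 rats. Fabp3, the heart fatty acid binding protein, and Aqp3, a glycerol channel, were at or under the floor of 5 on all 7 arrays.

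No gene was lower at 0.01 µM in limma without the rat, and Gas8, a protein of cilia, was the 1 lower gene with the block. Its log2 values of 4.52, 4.33, 4.35 and 4.48 at 0.01 µM were all under the floor of 5, and those at 0 µM were 4.70, 5.03 and 5.00, so it lay at the limit of what the arrays measure. The block change was -0.49 ± 0.13 (adjusted p = 0.0447). Exoc1, a subunit of the complex that tethers secretory vesicles, had 8.48, 8.96, 8.88 and 8.74 at 0.01 µM and 9.45, 9.20 and 9.15 at 0 µM, and Calm2, a calmodulin gene, had 11.78, 11.79, 11.73 and 11.87 at 0.01 µM and 11.95, 11.89 and 11.91 at 0 µM. Both were lower without overlap, as were 2.88% of all genes, and neither passed (-0.50 ± 0.18 for Exoc1 and -0.13 ± 0.05 for Calm2, adjusted p = 1 for each). Snapc4 and Pgap4, also among the 5 lower genes of lowest p, were under the floor of 5 on all 7 arrays, so no difference is given for them, and neither passed in either model.

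Other lists held no call without the block. Lipid droplet genes gave 0 of 11, with a median of 0.15. Lipogenesis and desaturation gave 0 of 19 in either model, with a median of 0.21. At an unadjusted p under 0.05, 3 of its genes were higher (against 1.12% of all genes). These were Agpat2, an enzyme of triglyceride synthesis (0.37 ± 0.14), Fads2, a desaturase (0.68 ± 0.32), and Elovl6, an elongase (0.59 ± 0.29). Cholesterol synthesis gave 0 of 14 (median 0.06), bile acids 0 of 12 (0.08), PPARs and their partners 0 of 13 (-0.03), acute phase proteins 0 of 17 (0.13), the ATF4 list 0 of 14 (0.01), the NRF2 list 0 of 11 (-0.12) and the cell cycle 0 of 10 (-0.04). Hepatocyte markers gave 0 of 16, with a median of 0.00. Among 15 xenobiotic genes, Cyp1a2 had the widest values, 8.72, 6.41, 5.44 and 6.92 at 0.01 µM and 4.19, 4.99 and 5.08 at 0 µM. Its groups did not overlap, but 2 of the 3 arrays at 0 µM were under the floor of 5 and the difference did not pass (adjusted p = 1). With values under 5 set to 5, the fold was 3.59. The log2 ratio of 3′ to 5′ probe sets of β-actin, a sign of RNA integrity, was lower at 0.01 µM in 3 of 3 rats (1.63 to 1.85 at 0.01 µM and 1.75 to 2.22 at 0 µM). That of GAPDH was lower in 3 of 3 rats too, while Rs628, with no partner, was highest (0.22 to 0.41 at 0.01 µM and 0.33 to 0.34 at 0 µM). Their part in these changes was not tested.

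Promoters were searched for the direct repeat that PPARα with RXR binds, AGGTCANAGGTCA, on both strands, in 250 bases before and 50 after the start of each gene in the RefSeq table of GRCr8. Among the 36 genes higher with the block, 30 had a promoter in the table, and 3 of them (10.0%) held the repeat with at most 1 base off, as did 127 of all 27457 promoters (0.463%) and 33 of the 7476 promoters of genes tested (0.441%). Of the 12 genes, 9 had a promoter, and that of Acadvl alone held it. A match describes the letters and shows no binding. The 100 bases before the start of the 3 genes are shown 5′ to 3′ on the gene's strand, with the repeat in capitals, because they place a near-perfect repeat close to the start of genes described above.
Fabp1: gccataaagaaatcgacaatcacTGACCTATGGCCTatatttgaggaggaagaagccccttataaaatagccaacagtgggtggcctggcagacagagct
Acadvl: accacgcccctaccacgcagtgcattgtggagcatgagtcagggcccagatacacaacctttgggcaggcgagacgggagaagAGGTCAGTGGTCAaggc
Acot8: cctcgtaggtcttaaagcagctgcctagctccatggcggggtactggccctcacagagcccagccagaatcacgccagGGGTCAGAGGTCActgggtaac
The Fabp1 stretch is chr4:104749240-104749339 on the + strand, and its repeat lies from -77 to -65 of the start and reads AGGCCATAGGTCA on the opposite strand. It differs from the searched repeat by T4C, with positions counted from 1 at the 5′ end of the repeat. The Acadvl stretch is chr10:55236706-55236805 on the - strand, with the repeat from -17 to -5 and the difference A8T. The Acot8 stretch is chr3:173962189-173962288 on the - strand, with the repeat from -22 to -10 and the difference A1G.

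The neighbouring concentrations at 24 h place 0.01 µM on the dose scale. These comparisons share arrays with the one above, so only values are set side by side. At 0.001 µM against 0 µM limma called 0 genes (0.0%, 11 genes at an unadjusted p under 0.05, and 0 with the rat as a block). At 0.01 µM against 0.001 µM it called 1 gene higher (0.0113%) and 0 lower, and with the block 22 higher (0.249%). That gene was Ehhadh (1.34 ± 0.24, adjusted p = 0.00538), which was not called without Rs628 or without Rs631. Among the 12 genes the differences there ran from 0.27 ± 0.09 (Acadvl) to that of Ehhadh. At 0.1 µM against 0.01 µM, 128 genes were higher (1.45%) and 18 lower (0.204%), and with the block 359 (4.06%) and 162 (1.83%). Without Rs627 the count of 146 was 76, and without Rs632 it was 87. Among the 12 genes the differences ran from 0.64 ± 0.12 (Eci1, adjusted p = 0.000252) to 2.32 ± 0.26 (Ehhadh, adjusted p = 1.09e-09).

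Ehhadh averaged 8.36 ± 0.18, 8.81 ± 0.25, 10.15 ± 0.49, 12.47 ± 0.08, 12.69 ± 0.06 and 12.73 ± 0.15 on the log2 scale at 0, 0.001, 0.01, 0.1, 1 and 10 µM (SD, n = 3, 4, 4, 3, 4 and 3). Cyp4a1 averaged 10.13, 10.59, 11.62, 12.82, 12.97 and 12.90 over the same concentrations. Slc25a20 averaged 9.12, 9.19, 9.67, 10.64, 10.98 and 11.04. In these genes the mean at 0.01 µM lay between those of 0.001 and 0.1 µM, and the steps above 0.1 µM were smaller than the step from 0.01 to 0.1 µM.

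Other targets that did not pass at 0.01 µM against 0 µM were higher at 0.1 µM than at 0.01 µM. Pdk4 averaged 8.24, 8.48, 9.49, 11.96, 12.37 and 12.48 over the 6 concentrations and was 2.48 ± 0.46 higher at 0.1 µM than at 0.01 µM (adjusted p = 0.000153). Cpt1b averaged 6.85, 6.68, 7.43, 9.71, 10.31 and 10.29, with a difference of 2.28 ± 0.38 between 0.1 and 0.01 µM (adjusted p = 1.84e-05). Acot1, with the 4 values given above at 0.01 µM, averaged 4.29 at 0.001 µM and 11.61, 11.97 and 11.98 at 0.1, 1 and 10 µM, and differed by 5.01 ± 0.70 between 0.1 and 0.01 µM (adjusted p = 3.54e-07), with 1 array at 0.01 µM under the floor. Fabp3 was at or under 5 in all arrays at 0.01 µM and averaged 7.48 ± 0.85 at 0.1 µM (n = 3), and its difference passed (adjusted p = 3.99e-06). Angptl4 (0.70 ± 0.16, adjusted p = 0.00596), Plin2 (0.33 ± 0.08, 0.00681), Vnn1 (0.74 ± 0.20, 0.0306), Cpt1a (0.91 ± 0.26, 0.0492), Cpt2 (0.59 ± 0.16, 0.0269), Pex11a (1.21 ± 0.33, 0.0348) and Fads2 (1.37 ± 0.32, 0.00664) were also higher at 0.1 µM than at 0.01 µM. Exoc1 was lower at 0.1 µM than at 0.01 µM (-0.71 ± 0.18, adjusted p = 0.0203). Gas8 was not (-0.03, adjusted p = 1).

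**Figure D4:**
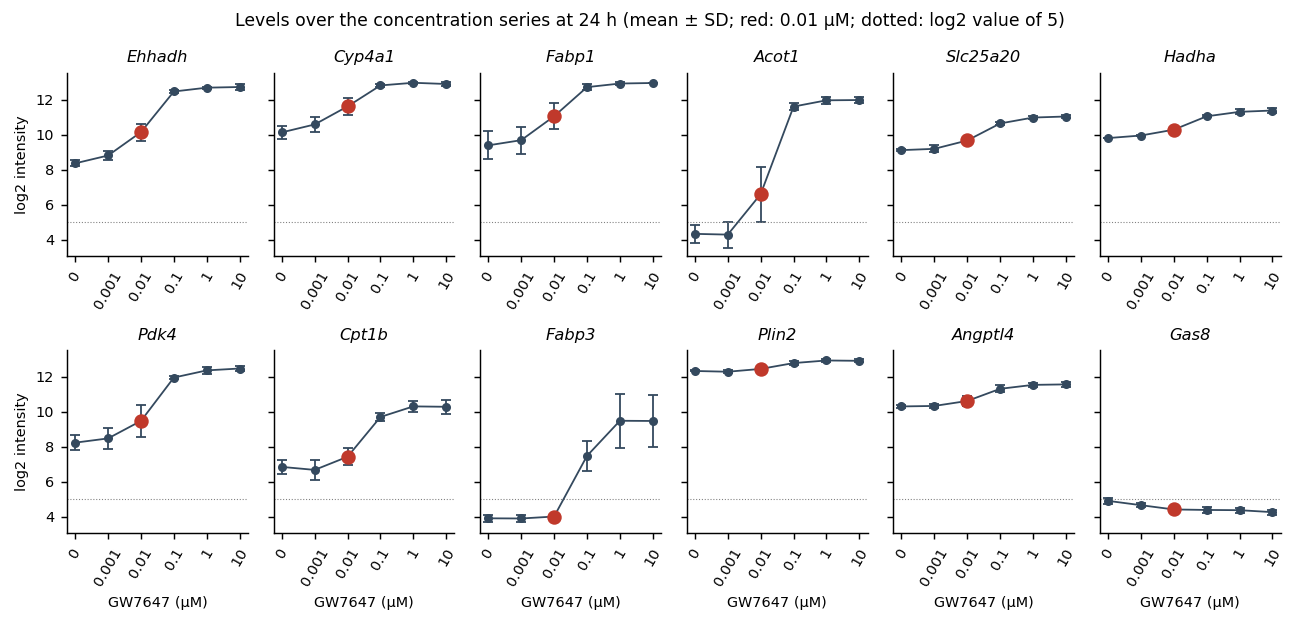
Mean log2 intensity with SD (vertical axis, shared) of 12 genes at 24 h over the 6 concentrations of GW7647 (horizontal axis, equally spaced), with 0.01 µM in red and the floor of 5 dotted. Ehhadh, Cyp4a1 and Fabp1 have means at 0.01 µM above those at 0 µM, Fabp3 is at its 0 µM level there, and Gas8 stays near the floor.

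The same concentration was measured in other arrays after 6 h (3 arrays at 0.01 µM, 4 at 0 µM) and 72 h (4 and 4). After 6 h limma called 0 genes in either direction (0.0%), with 54 at an unadjusted p under 0.05, and with the rat as a block 10 higher (0.113%). Of those 10, 7 were also called with the block at 24 h, which is 70% of the 6 h calls and 18.9% of the 24 h calls. After 72 h, 35 genes were higher (0.396%) and 2 lower (0.0226%), and with the block 115 were higher (1.3%) and 85 lower (0.961%). The count of 37 was 12 without Rs627, 24 without Rs631 and 12 without Rs632. Of the 12 genes, 10 were also called at 72 h, which is 83.3% of the 24 h calls and 27.0% of the 72 h calls. Tests of the difference between the changes called 0 genes both for 24 h against 6 h and for 72 h against 24 h (0.0%), with 26 and 59 genes at an unadjusted p under 0.05 and 0 calls with the block.

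All 12 genes had a change above 0 at both other times. At 6 h all 12 changes were smaller than at 24 h, and at 72 h 9 were larger, although no single difference passed. Because the 12 were chosen by their change at 24 h, smaller changes at another time can follow from that choice. No growth with time is read from these counts. Ehhadh changed by 1.00 ± 0.26 at 6 h, 1.79 ± 0.26 at 24 h and 2.28 ± 0.24 at 72 h, and Hadha by 0.10 ± 0.09, 0.48 ± 0.09 and 0.58 ± 0.09. Crat (0.70 ± 0.19, adjusted p = 0.0896) and Lpcat3 (0.47 ± 0.12, adjusted p = 0.0675) were the 2 that did not pass at 72 h, and both passed there with the block (0.00535 and 0.00322). Fabp1, which overlapped at 24 h, changed by 0.47 ± 0.42 at 6 h and by 2.31 ± 0.39 at 72 h (adjusted p = 0.000109). Acot1 passed with the block at 6 h (adjusted p = 0.000592) and in both models at 72 h (0.0211 without the block). Plin2 passed with the block at 6 h (0.33, adjusted p = 0.0128) but not at 24 or 72 h.

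**Figure D5:**
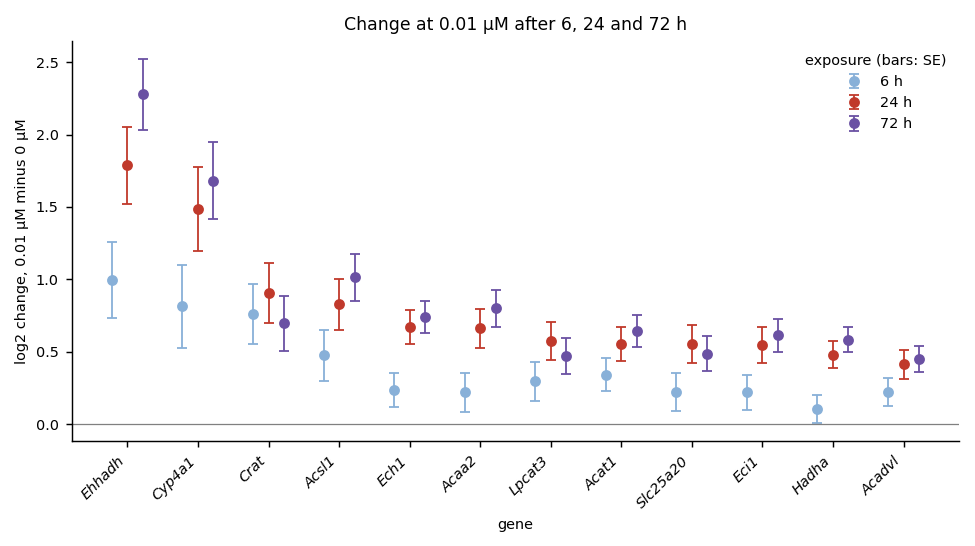
Log2 change at 0.01 µM against 0 µM with its SE (vertical axis) for the 12 genes (horizontal axis) after 6, 24 and 72 h. All 36 points lie above 0, and for every gene the point of 6 h lies below that of 24 h. The genes were chosen by their change at 24 h.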

How the data were processed

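Hepatocyte RNA was amplified and biotin-labelled with a 3′ expression kit and hybridised to Affymetrix rat arrays, per the labels' protocols. The authors deposited log2 intensities, and the submitters' processing notes name GCRMA and Partek without version, role or order. They were used without further scaling. Of 31139 probe sets, 19069 had exactly 1 gene symbol, and the brightest on average stood for each of 13439 genes. Genes over a log2 value of 5 in 3 arrays or more, 8843 in all, were tested.

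A model with 30 group means was fitted to 100 arrays by limma 3.58.1 (R 4.3.3 and statmod 1.5.0, 70 residual degrees of freedom, Benjamini-Hochberg adjustment), and figures were drawn with Python 3.11.15 and matplotlib 3.10.9. The code of the fit was tried on simulated data with independent arrays and no rat effect. That trial does not show how the fit performs on arrays correlated within a rat. Precision is limited by the number of arrays. A group's arrays come from separate rats, per the labels, and arrays of 1 rat are paired by animal. Deviations from group means correlated at a median of 0.62 within a rat and -0.22 between rats, and at 0.65, 0.81 and 0.79 in the 3 pairs compared here. Subtracting the mean of so few arrays pushes correlations between rats below 0, so the -0.22 does not measure how rats differ. The paired model, with the rat as a block, called 37 genes, against 12 without it.

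Genes named are rises by size with the same sign in the 3 rats, the 5 lowest p among falls, up to 8 members per list by p, known PPARα targets, and exceptions marked in the text. There were 25 lists, 9 of them of fatty acid metabolism and 5 of markers, and each is described by counts and a median, without a set test. The comparison, the lists and the members were chosen with earlier results of these data known. Alternatives were the block, fewer arrays, other filters, normalizations and priors, every probe set, a 1.5-fold minimum, and each rat left out. Plates and dates are not named, so values within a batch were not computed.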

Additional observations from a re-analysis of the deposited data

Results flagged for a closer look

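In 177 groups of 4 arrays (59 genes at 0.001, 0.01 and 1 µM and 24 h), 7 arrays stood apart from the other 3 by Dixon's test, where chance flags about 1 in 20 groups. At 0.01 µM, Rs632 was low for Eci1 (log2 value 11.87, the others between 12.34 and 12.43) and for Pdk4 (8.15, the others between 9.80 and 10.06). At 0.001 µM, Rs627 was high for Fabp1 (10.84, the others between 9.28 and 9.32), Rs631 was high for Acot2 (11.33, the others between 10.65 and 10.74) and Rs631 was low for Agpat2 (8.41, the others between 8.72 and 8.76). At 1 µM, Rs632 was high for Slc25a20 (11.09, the others between 10.94 and 10.96) and Rs631 was low for Fads2 (7.82, the others between 8.97 and 9.01).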

How the results depend on the processing

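The count of 12 genes at 24 h was 8 with no filter, 15 with a filter at log2 7, 14 with an intensity trend and robust prior, 13 with quantile normalization, 14 with median centring and 10 with every probe set. Of the 12 genes themselves, 4 lost the call with no filter, 3 with every probe set and 1 with quantile normalization. The count was 37 with the rat as a replicate block, 4 with the arrays of 24 h alone, 0 with the 7 arrays of the 2 groups and 6 with a minimum of 1.5-fold. Leaving out each rat in turn gave 0 to 9, and between 6 and 12 of the 12 genes lost the call. Alternatives chosen after seeing the data gave 22 for the block with the arrays of 24 h, 1 to 9 when a rat's arrays of the 2 groups alone were left out, and 2 to 35 for the block with each rat left out. At 72 h the count of 37 was 200 with the block and 12 to 49 without each rat, and at 6 h the count of 0 was 10 with the block and 0 without each rat. At 0.01 against 0.001 µM the count of 1 was 22 with the block and 0 to 2 without each rat, and at 0.1 against 0.01 µM the count of 146 was 521 with the block and 76 to 115 without each rat. The cause of these shifts was not tested. The 59 genes whose change is reported kept their sign under each alternative in which they were fitted, Gas8 being under the filter at log2 7 and the 1.5-fold minimum bearing on the count alone, and the block ended no call. Of the 12 genes, Ehhadh passed under 22 of 24 alternatives and Acadvl, the lowest, under 8. Values near the floor of 5, as for Gas8 and Acot1, are limited by signal over background.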
